A study of Mus musculus with 18 samples.

Results

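A set of 9 antiviral genes that cells switch on in response to type I interferon was followed through every library of the series: Ifit1, Ifit2, Ifit3, Ifit3b, Isg15, Usp18, Rsad2, Cmpk2 and Herc6. They were chosen by symbol, 9 of the 23052 genes listed in each of 2 count tables, and all 9 passed the filter on low counts in both. The cells were bone marrow-derived macrophages from C57BL6/J wild type mice, grown for 7 days in 80% DMEM with serum and 20% medium conditioned by L929 cells. The first table held endotoxin-tolerant macrophages in 3 groups of 4 libraries: given alpha-ketoglutarate (AKG) without glutamine, without glutamine and without AKG, and with glutamine. The second held macrophages given IL-4 for 6 h, macrophages given LPS for 6 h and control macrophages (CTRL), with 2 libraries each. The labels state neither how tolerance was induced nor the AKG and LPS doses. They also do not say that replicates came from separate animals or cultures, so p-values measure the spread between these libraries only.

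Type I interferon binds a receptor made of IFNAR1 and IFNAR2, which acts through the kinases JAK1 and TYK2. They activate ISGF3, a complex that holds STAT2 and IRF9 and binds the interferon-stimulated response element (ISRE) before antiviral genes. In macrophages LPS sets this pathway going through IRF3 and newly made interferon beta. Some IFIT proteins bind viral RNA. ISG15 is a ubiquitin-like protein that is joined to other proteins, HERC6 is the main ligase for that step in mouse cells, and USP18 removes ISG15 and also restrains signalling at the interferon receptor. RSAD2 (viperin) converts CTP into a chain terminator of viral RNA synthesis, and CMPK2 is a nucleotide kinase whose gene is the neighbour of Rsad2.

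The 4 Ifit genes lie on the plus strand within 99.3 kb of chromosome 19 in GRCm38, from 34550694 to 34650009. Rsad2 and Cmpk2 lie on opposite strands of chromosome 12 with 12.8 kb between them, Usp18 and Herc6 lie on chromosome 6, and Isg15 on chromosome 4. The 250 bases before each start site (RefSeq, GRCm38.p6) were searched for the ISRE core, which is GAAA, 2 bases of any kind and GAAA on either strand. The stretches that hold it are printed for those genes in which it was found, and capitals mark the matches.

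Ifit1 (chr19:34640773-34640825, plus strand): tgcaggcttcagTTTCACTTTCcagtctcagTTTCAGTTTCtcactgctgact
Ifit3 (chr19:34583361-34583428, plus strand): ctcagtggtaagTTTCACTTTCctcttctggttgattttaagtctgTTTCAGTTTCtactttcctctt
Ifit3b (chr19:34607757-34607824, plus strand): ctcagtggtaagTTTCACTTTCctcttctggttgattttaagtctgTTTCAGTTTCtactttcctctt
Isg15 (chr4:156200863-156200908, minus strand): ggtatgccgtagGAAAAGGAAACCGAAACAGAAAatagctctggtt
Rsad2 (chr12:26456551-26456584, minus strand): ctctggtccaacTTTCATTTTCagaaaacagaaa

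Ifit1, Ifit3 and Ifit3b each held 2 matches, Isg15 held 3, of which neighbouring ones overlap, and Rsad2 held 1. The 68 bases shown for Ifit3 and Ifit3b are identical. No match was found in the windows of Ifit2, Cmpk2 and Herc6, and Usp18 had no window in the table. Of all 32851 windows of this length, 2.98% held at least 1 match and 0.180% held 2 or more. The kappaB consensus (either strand) and the TATA box TATAAA (sense strand) were not found in any window of these genes, while 3.90% and 7.59% of all windows held them. A match is a description of these letters and not evidence of binding.

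Each tolerant library held 28302158 to 37834680 counts, and each stimulation library held 34227368 to 39760356. Macrophage markers were abundant in every library, with a summed level of 26686 to 46817 CPM over 8 genes, while lymphocyte markers summed to at most 0.281 CPM over 4 genes. In all 3 tolerant groups, replicates 3 and 4 stood apart from replicates 1 and 2, a split seen in the data and not named in the labels: 56.2% of 12492 genes differed between these subsets, with group as a term. That share describes the split and is no independent test of it. Stromal fibroblast markers moved with the same split, and all 8 were higher in replicates 3 and 4. Deviations from the group means correlated at 0.501 to 0.823 between same-numbered libraries, and at 0.465 to 0.836 between differently numbered libraries of the same subset, so no pairing by number is shown beyond the split. Values from a fit with the replicate number as a block stand beside the unblocked ones where they change a call. In bulk RNA, fewer cells expressing a gene and less of its RNA per cell cannot be told apart.

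**Figure D1:**
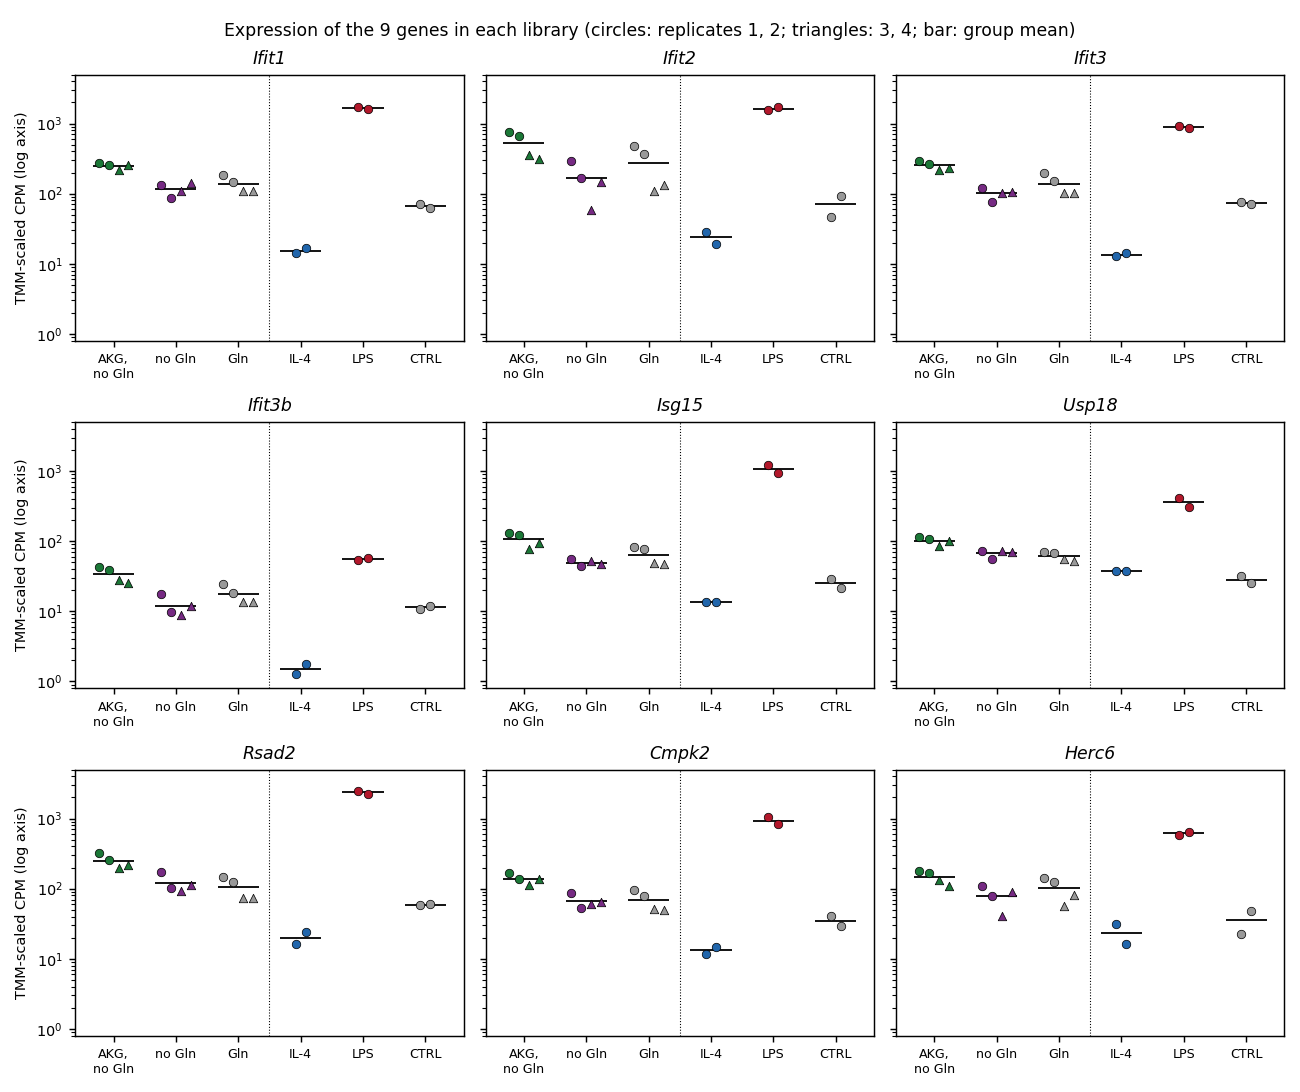
TMM-scaled CPM (log axis) of each of the 9 genes in every library, with the tolerant groups left of the dotted line and the stimulation groups right of it. Circles are replicates 1 and 2, triangles replicates 3 and 4, and bars group means; the LPS libraries lie highest in every panel, the AKG libraries lie above all tolerant libraries without glutamine or AKG, and the IL-4 libraries lie lowest for every gene but Usp18 and Herc6. The tables were normalized separately.

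Levels are counts scaled to library size (CPM) after normalization by the trimmed mean of M values (TMM), and were compared between genes only per kilobase of annotated exon (CPM per kb, GENCODE vM21). The length joins the exons of all annotated transcripts. For Usp18 and Herc6 it was 2790 and 9292 bases, against 1771 and 4767 for the longest protein-coding transcript. For Rsad2, Cmpk2 and Ifit2 it was 4335, 4163 and 3927 bases, against 3782, 3200 and 3818. The places of Usp18 and Herc6 in the orders below depend on which length is used. So does whether the range of Rsad2 with LPS overlaps that of Ifit1 or that of Ifit3. With LPS, Isg15 led at 1421 ± 283 CPM per kb (SD, n = 2), above Ifit1 at 636 ± 27.6, Rsad2 at 548 ± 32.3 and Ifit3 at 512 ± 21.8. The ranges of Rsad2 and Ifit3 overlapped there, and the range of Ifit3b, the lowest at 27.9 ± 1.89, overlapped none. In CTRL macrophages Ifit3 led at 42.1 ± 1.73 CPM per kb and Herc6 was lowest at 3.80 ± 1.91. With IL-4 the order differed: Isg15 at 17.8 ± 0.131 CPM per kb was followed by Usp18 at 13.4 ± 0.0866, and Ifit3b was lowest at 0.755 ± 0.169. In the tolerant groups the 4 highest were always Ifit3, Isg15, Ifit2 and Ifit1, whose neighbouring ranges overlapped, and the 2 lowest were always Herc6 and Ifit3b. With AKG the leading levels were 144 ± 20.4 CPM per kb for Ifit3 and 140.3 ± 32.7 for Isg15 (SD, n = 4).

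Whether AKG alters these genes in tolerant cells that lack glutamine was asked first. All 9 were higher with AKG in every library than in any library without glutamine, which held for 4.02% of the 12492 genes tested. edgeR's quasi-likelihood test with Benjamini-Hochberg adjustment called 5 of the 9 higher (Ifit3, Ifit3b, Ifit1, Isg15 and Cmpk2), against 0.688% of all genes, and with the replicate block it called all 9, against 8.50%. The median log2 change was 1.09, against 0.01 over all genes tested, and single genes ranged from 0.60 to 1.64.

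The 3 largest changes were those of the Ifit genes Ifit2, Ifit3b and Ifit3. Ifit3 had 294, 268, 215 and 232 TMM-scaled CPM in the 4 AKG libraries, against 122, 76.4, 101 and 104 CPM without glutamine. Ifit3b, a near copy of Ifit3, had 43.2, 38.2, 27.6 and 25.1 CPM with AKG, against 17.5, 9.64, 8.76 and 11.8 CPM without glutamine. Replicates 1 and 2 with AKG were the highest for both genes, and the groups did not overlap. The log2 changes were 1.33 ± 0.22 (SE) for Ifit3 (adjusted p = 0.0183, edgeR) and 1.49 ± 0.28 for Ifit3b (adjusted p = 0.0293). Ifit1, which binds viral RNA that lacks the host cap modification, had 271, 255, 220.2 and 253 CPM with AKG, against 132, 87.0, 109 and 143 CPM without glutamine. The lowest AKG library thus lay well above the highest one without it, with a log2 change of 1.09 ± 0.19 (adjusted p = 0.0233, edgeR).

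Ifit2 had the largest change and the widest spread. It had 755, 659.7, 361 and 309 CPM with AKG, against 297, 168, 59.3 and 145 CPM without glutamine. Replicates 1 and 2 were the high ones in both groups, and the lowest AKG value only just cleared the highest value without it. The log2 change of 1.64 ± 0.57 did not pass (adjusted p = 0.217, edgeR), and with the replicate block it was 1.74 ± 0.25 (adjusted p = 0.00228).

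Among the ISG15 genes, Isg15 itself had 132, 121, 76.9 and 95.1 CPM with AKG, against 54.9, 44.7, 51.7 and 47.0 CPM without glutamine, a log2 change of 1.10 ± 0.21 (adjusted p = 0.0326, edgeR). The groups did not overlap, and the libraries without glutamine were the more uniform. Usp18, the ISG15 protease, had 116, 108, 84.0 and 100.2 CPM with AKG, against 72.0, 55.4, 71.5 and 70.9 CPM without glutamine. Herc6, the ligase, had 176, 165, 131 and 109 CPM with AKG, against 108, 77.8, 41.0 and 89.7 CPM without glutamine. Neither passed the unblocked test, and the lowest AKG value of Herc6 was close to the highest value without it. The log2 changes were 0.60 ± 0.14 for Usp18 (adjusted p = 0.0562, and 0.0121 with the block, edgeR) and 0.88 ± 0.32 for Herc6 (adjusted p = 0.251, and 0.0123 with the block).

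The neighbours Rsad2 and Cmpk2 had like changes. Rsad2 had 318, 256, 195 and 216 CPM with AKG, against 171, 103, 93.5 and 113 CPM without glutamine, and Cmpk2 had 166, 139, 114 and 135 CPM with AKG, against 87.3, 52.9, 60.1 and 64.0 CPM without glutamine. Neither gene's groups overlapped. The log2 changes were 1.03 ± 0.27 for Rsad2 (adjusted p = 0.0869, and 0.000774 with the block, edgeR) and 1.07 ± 0.23 for Cmpk2 (adjusted p = 0.0433).

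**Figure D2:**
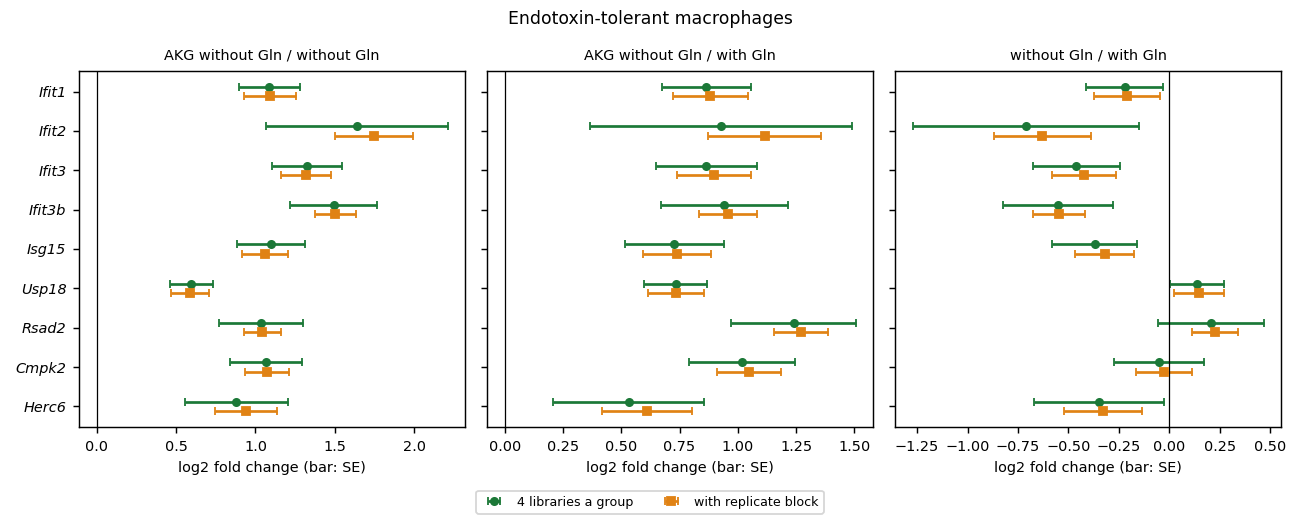
Log2 fold changes of the 9 genes in the 3 comparisons of tolerant macrophages, with bars for the SE; circles are the fit with 4 libraries a group, squares the fit with the replicate number as a block. The 9 values lie between 0.60 and 1.64 for AKG over no glutamine, between 0.53 and 1.24 for AKG over glutamine, and on both sides of 0 for no glutamine over glutamine.

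The count of 5 changed when single libraries were left out. It was 2, 0, 1 and 1 when replicates 1 to 4 without glutamine were left out in turn, 1, 0, 2 and 2 when those with AKG were left out, and 4 or 5 without a glutamine library. Calls over all genes fell too, from 192 to 95, 33, 122 and 82 in the first case and to 98, 28, 54 and 52 in the second. The median log2 change of the 9 genes was 0.98 to 1.23 in these 2 cases. Within each subset of replicates the changes lay above 0, which follows from the lack of overlap given above and is no separate support. The median was 1.27 within replicates 1 and 2, with 9 genes called (12.6% of all genes called higher). It was 0.998 within replicates 3 and 4, with 6 called (2.73%). With edgeR's robust dispersion estimates 6 were called within each subset. The test of the difference between the subsets passed for 0 of the 9 after adjustment (edgeR, with 0.0400% of all genes passing). At an unadjusted p under 0.05 it passed for Isg15 and Usp18, whose changes were the smaller in replicates 3 and 4. The share of all genes at the unadjusted threshold was not computed, so nothing is read from those 2 genes. Summed fibroblast markers ran from 84.7 to 317 CPM with AKG and from 40.7 to 172 CPM without glutamine. They were 84.7 to 119 CPM with AKG against 40.7 to 44.3 CPM without glutamine within replicates 1 and 2, and 309 to 317 CPM against 161 to 172 CPM within replicates 3 and 4; their part in the result was not tested.

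Upstream genes of the interferon pathway changed in part. Of 10 tested, 1 rose with AKG and none fell: Irf7, the interferon-induced regulator of interferon genes, by 0.82 ± 0.17 log2 units (adjusted p = 0.0376, edgeR). Stat2 at 0.83 ± 0.25 and Irf1 at 0.55 ± 0.26 passed with the block only (adjusted p = 0.00473 and 0.0265). The receptor chains, the kinases, Irf3, Irf9 and Socs1 had values of -0.38 to 0.21 and were not called in either fit. Ifnb1, which encodes interferon beta, had 9, 4, 2 and 1 reads with AKG and 2, 3, 0 and 0 reads without glutamine, too few for the filter. Of the 4 other enzymes of ISG15 conjugation, the E2 enzyme Ube2l6 rose by 0.53 ± 0.11 (adjusted p = 0.0404, edgeR), the E1 enzyme Uba7 at 0.72 ± 0.35 passed with the block only (adjusted p = 0.000955), and Trim25 and Arih1 had 0.13 and -0.13.

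Of 25 other antiviral interferon-induced genes tested, 5 rose and 0 fell with AKG, and 24 rose with the block; their median was 0.81. The largest values belonged to Ifi44 at 1.64 ± 0.70, the GTPase gene Mx1 at 1.59 ± 0.42 and the chemokine gene Cxcl10 at 1.39 ± 0.82, and the smallest to Ifitm3 at 0.43 ± 0.35, Oas1a at 0.53 ± 0.12 and Tor3a at 0.57 ± 0.13. None of these 6 passed without the block, and all 6 did with it. Ifit1bl1, a further gene of the Ifit locus, had 2.29 ± 0.70 (adjusted p = 0.150, and 0.000224 with the block, edgeR), and its neighbour Ifit1bl2 had 0.54 ± 0.34 and was not called in either fit. Plasmacytoid dendritic markers, 5 genes, summed to 526 to 698 CPM with AKG against 350 to 449 CPM without glutamine. Of the 2 that passed the filter, Bst2, also among the antiviral genes, was called at 0.61, and Tcf4 at 0.68 passed with the block only (adjusted p = 0.0193, edgeR). Siglech, a defining marker, had at most 1 read in any of these libraries and Ly6d had 0. The part of these markers in the result was not tested. Of 8 genes of the NF-kappaB dependent LPS response, 0 rose, 1 fell (Il6, by 3.43 log2 units) and 7 were not called, against 0.849% of all genes called lower. Il6 was low, at a mean of 0.251 CPM with AKG and 2.74 ± 2.57 CPM (SD, n = 4) without glutamine. In the latter group its mean was 0.719 CPM in replicates 1 and 2 and 4.76 CPM in replicates 3 and 4. With the block 3 of the 8 genes fell, against 7.07% of all genes, and the list median was -0.68.

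Set against glutamine rather than its absence, the AKG group shares its libraries with the comparison above, so the values are given side by side and are not independent. Here edgeR's quasi-likelihood test called 0 of the 9 genes, and 0 of all 12492 (0%). At an unadjusted p under 0.05 there were 7 of the 9, all higher, among 919 genes (7.36%), and DESeq2 called 6 of the 9 among 232 genes. With the replicate block 8 of the 9 were called higher, against 1.65% of all genes, Herc6 being the exception (adjusted p = 0.106). The groups did not overlap for 6 genes, against 2.48% of all genes, and the median log2 change was 0.86, against 0.00 over all genes.

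Rsad2 had the largest value, with 318, 256, 195 and 216 CPM with AKG against 146, 123, 73.8 and 74.9 CPM with glutamine, a log2 change of 1.24 ± 0.27 (adjusted p = 0.173, and 0.000324 with the block, edgeR). Cmpk2 had 94.8, 78.5, 51.8 and 49.0 CPM with glutamine and a log2 change of 1.02 ± 0.23 (adjusted p = 0.174, and 0.00213 with the block). For both neighbours each AKG library lay above all those with glutamine. Ifit2, Isg15 and Herc6 overlapped: their highest glutamine libraries, at 486, 83.4 and 141 CPM, exceeded the lowest AKG libraries, at 309, 76.9 and 109 CPM. Log2 changes were 0.93 ± 0.56 for Ifit2 and 0.73 ± 0.21 for Isg15, and 0.86 ± 0.19 for Ifit1, 0.86 ± 0.22 for Ifit3, 0.94 ± 0.27 for Ifit3b, 0.73 ± 0.14 for Usp18 and 0.53 ± 0.32 for Herc6. Within replicates 1 and 2 the median was 0.69 with 7 called (5.25% of all genes called higher), but 2 with robust dispersion estimates, and within replicates 3 and 4 it was 1.15 with 7 called (1.13%). The test of the difference between the subsets passed for 0 of the 9 (1.54% of all genes). It also passed for 0 at an unadjusted p under 0.05, where the share of all genes was not computed. Fibroblast markers were at 84.7 to 317 CPM with AKG and 337 to 1784 CPM with glutamine; their part in these differences was not tested.

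Loss of glutamine alone changed none of the 9 genes past the threshold. Without glutamine against with it, edgeR's quasi-likelihood test called 0 of the 9 genes, while 2.31% of all genes were called higher and 2.47% lower. At an unadjusted p under 0.05 there were also 0 of the 9, among 2245 genes (18.0%), and DESeq2 called 0, among 1260 genes. Every gene's groups overlapped (6.57% of all genes did not overlap with the group without glutamine higher, and 5.78% with it lower). With the block 1 was called, Ifit3b, lower by 0.55 ± 0.13 log2 units (adjusted p = 0.0148, edgeR; 13.1% of all genes lower). The median was -0.35. Ifit2 at -0.71 ± 0.56, Ifit3b at -0.55 ± 0.27, Ifit3 at -0.46 ± 0.22 and Isg15 at -0.37 ± 0.21 lay furthest below 0, while Rsad2 at 0.21 ± 0.26 and Usp18 at 0.14 ± 0.14 were the only 2 above it. Of 25 other antiviral genes 0 were called, but all 25 values lay below 0, at -0.90 to -0.0035 with a median of -0.24, and 6 were called lower with the block. Of 10 pathway genes 0 were called, and 1 was higher with the block. Of the 8 NF-kappaB dependent genes 4 rose and 0 fell, with a median of 1.07.

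The glutamine comparison was also read within each replicate subset. Within replicates 1 and 2, Ifit1 had 132 and 87.0 CPM without glutamine against 184 and 148 CPM with it, and Isg15 had 54.9 and 44.7 against 83.4 and 76.8 CPM. Both genes were thus lower without glutamine and did not overlap there, while the groups of Rsad2, Cmpk2 and Usp18 overlapped. The share of all genes without overlap within this subset was not computed. Within replicates 3 and 4, Ifit1 had 109 and 143 CPM without glutamine against 109.6 and 107 CPM with it, and Isg15 had 51.7 and 47.0 against 49.4 and 46.8 CPM. There the groups of both genes overlapped. The median log2 change was -0.60 in replicates 1 and 2 and 0.06 in replicates 3 and 4.

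In replicates 1 and 2 alone, 5 of the 9 were called lower (Isg15, Ifit3, Ifit2, Ifit1 and Herc6; 15.5% of all genes), but 1, Isg15, with robust dispersion estimates. In replicates 3 and 4 alone, Rsad2 and Usp18 were called higher, by 0.50 ± 0.12 and 0.44 ± 0.10 log2 units (4.23% of all genes). The test of the difference between the subsets passed for 0 of the 9 genes after adjustment, against 2.47% of all genes, and its smallest adjusted p was that of Isg15 (difference of 0.72 ± 0.18 log2 units, adjusted p = 0.0744, edgeR). At an unadjusted p under 0.05 it passed for Ifit1, Ifit3, Isg15 and Usp18. The share of all genes at that threshold was not computed, so this count gives no result about these genes. Fibroblast markers differed by subset and by group: 40.7 to 44.3 CPM without glutamine against 337 to 376 CPM with it in replicates 1 and 2, and 161 to 172 CPM against 1764 to 1784 CPM in replicates 3 and 4. Their part was not tested.

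**Figure D3:**
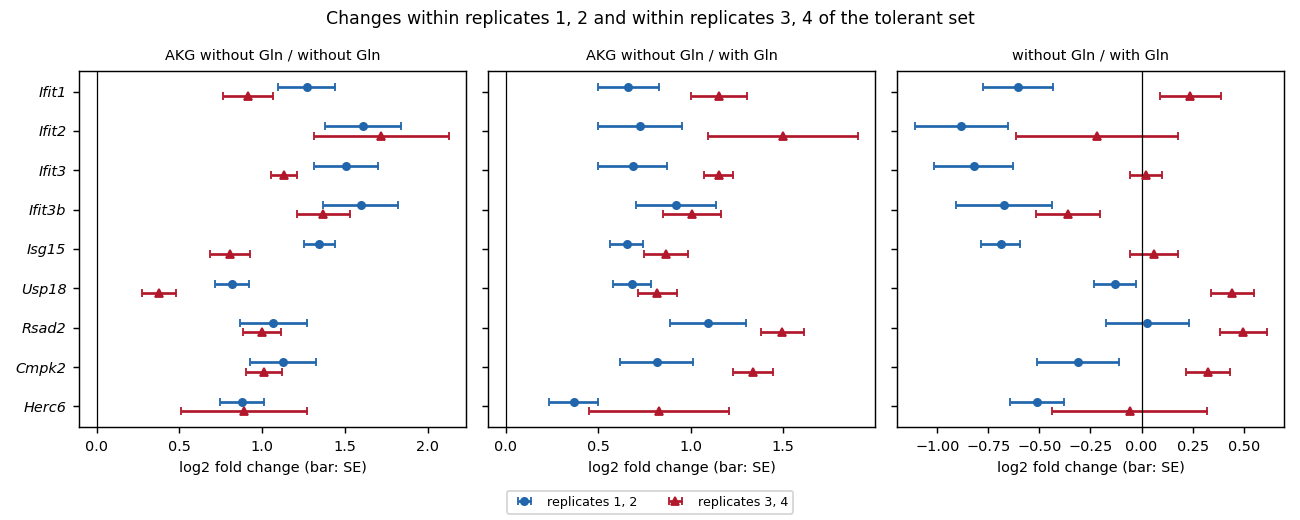
Log2 fold changes of the 9 genes in tolerant macrophages, fitted within replicates 1 and 2 (circles) and within replicates 3 and 4 (triangles), with bars for the SE. In both subsets all 9 values lie above 0 for AKG over no glutamine and for AKG over glutamine; for no glutamine over glutamine the medians are -0.60 and 0.06.

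With group as a term, 6 of the 9 were lower in replicates 3 and 4 than in replicates 1 and 2, against 26.6% of all genes called lower. The split was seen in these same data, so the p-values here describe it and are no independent test. Ifit2 differed most, by -1.36 ± 0.22 log2 units (adjusted p = 0.000317, edgeR), followed by Herc6 at -0.65 ± 0.18, Rsad2 at -0.58 ± 0.13, Ifit3b at -0.58 ± 0.14, Isg15 at -0.44 ± 0.11 and Cmpk2 at -0.42 ± 0.13. Ifit3 at -0.35 ± 0.14 (adjusted p = 0.0520), Ifit1 at -0.19 ± 0.14 and Usp18 at -0.17 ± 0.10 were not called. The ratio of Ifit2 to Ifit1 counts shows the same split: 1.94 to 2.79 in the 6 libraries of replicates 1 and 2, and 0.546 to 1.64 in the 6 libraries of replicates 3 and 4.

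LPS for 6 h raised all 9 genes over CTRL, where 22.8% of 12506 genes were called higher, and no gene's groups overlapped (32.8% of all genes did not overlap with LPS higher). The 9 genes took 0.759 to 0.794% of all counts with LPS, against 0.0433 to 0.0460% in CTRL. Isg15 had 1226 and 923 CPM with LPS, against 28.7 and 21.6 CPM in CTRL, a 42.7-fold rise (log2 5.42 ± 0.23, adjusted p = 4.74e-05, edgeR). Rsad2 had 2476 and 2278 CPM with LPS, against 58.9 and 59.5 CPM in CTRL, a 40.2-fold rise (log2 5.33 ± 0.22, adjusted p = 4.68e-05). These were the largest changes, and both libraries of each group were close to one another for Rsad2.

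Ifit1 and Cmpk2 followed with log2 changes of 4.66 ± 0.15 and 4.73 ± 0.26. Ifit2 at 4.54 ± 0.40 and Herc6 at 4.13 ± 0.48 had the widest errors, and their CTRL libraries were the most unequal, at 47.1 and 93.4 CPM for Ifit2 and at 22.7 and 47.8 CPM for Herc6. Usp18 rose 12.7-fold (3.66 ± 0.20) and Ifit3 12.2-fold (3.60 ± 0.11). Ifit3b had 53.1 and 58.4 CPM with LPS, against 10.8 and 11.8 CPM in CTRL, and rose least, 4.92-fold (2.30 ± 0.16, adjusted p = 0.000173, edgeR).

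Ratios between the 2 near copies were compared by library. Ifit3 had 17.3 and 14.8 times the counts of Ifit3b in the LPS libraries, against 6.99 and 6.04 times in CTRL, 10.1 and 8.14 times with IL-4 and 6.80 to 11.5 times in the 12 tolerant libraries. Both LPS ratios lay above all the others. Of the 50-base words in the Ifit3 transcript 51.2% also occur in Ifit3b, and 44.5% of those in Ifit3b also occur in Ifit3. Reads that lie wholly within shared sequence cannot be placed, so both genes' values are uncertain. With their counts summed, the log2 change was 3.48 for LPS over CTRL and 1.34 for AKG over no glutamine. Herc6 shares 23.8% of its words with the overlapping Gm45193, which lies on the same strand, and Usp18 is overlapped by Gm44148 on the other strand; no source used here gives the strand setting of the counting.

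**Figure D4:**
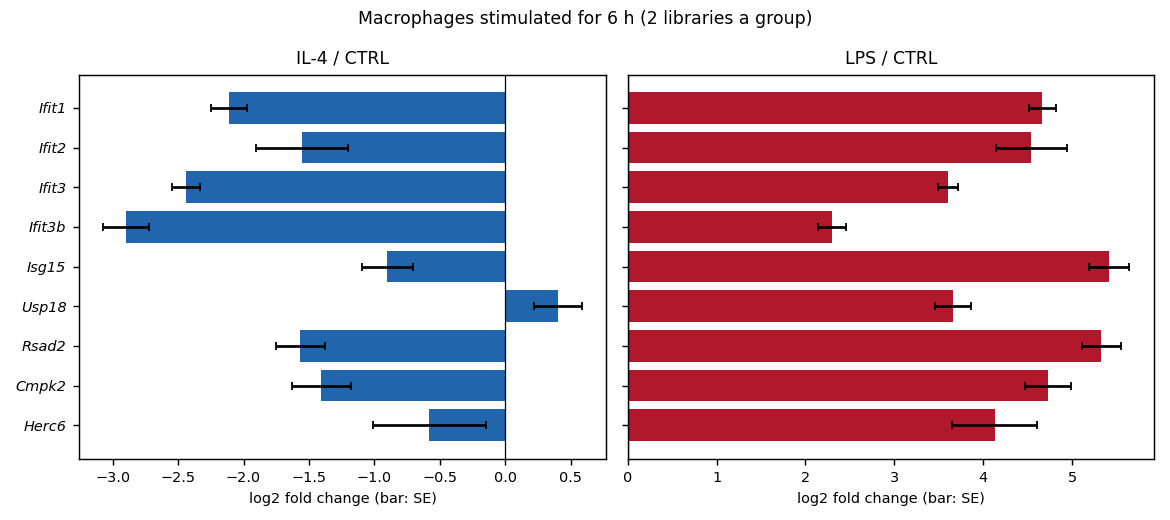
Log2 fold changes of the 9 genes with IL-4 over CTRL (left) and LPS over CTRL (right), 2 libraries a group, with bars for the SE and separate horizontal axes. LPS values run from 2.30 for Ifit3b to 5.42 for Isg15, while IL-4 values run from -2.90 for Ifit3b to 0.40 for Usp18.

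IL-4 for 6 h went the other way. It lowered 7 of the 9 genes relative to CTRL, against 10.5% of all genes called lower, and 6 with the replicate block or with robust dispersion estimates, where Ifit2 dropped out (adjusted p = 0.0718 and 0.0531, edgeR; 7.28% of all genes were lower with the block). The same 7 did not overlap between groups (31.8% of all genes did not overlap with IL-4 lower), and Usp18 did not overlap with IL-4 higher (26.5% of all genes). The median was -1.55, against -0.04 over all genes, and the 9 genes took 0.0177 to 0.0188% of counts with IL-4, against 0.0433 to 0.0460% in CTRL. The IL-4 and LPS comparisons share the CTRL libraries. No pairing by number was taken in the stimulation set. Deviations of same-numbered CTRL and IL-4 libraries correlated at -0.662, so block values for this set, here and below, are an alternative only.

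Of the 9, Ifit3b, Ifit3 and Ifit1 fell most. Ifit3b had 1.27 and 1.75 CPM with IL-4 (49 and 78 reads), against 10.8 and 11.8 CPM in CTRL, and fell by 2.90 ± 0.18 log2 units, 7.45-fold (adjusted p = 0.000505, edgeR). Ifit3 had 12.8 and 14.2 CPM with IL-4, against 75.6 and 71.3 CPM in CTRL, and fell 5.43-fold (log2 -2.44 ± 0.11, adjusted p = 0.000222). Ifit1 had 14.1 and 16.8 CPM with IL-4, against 71.8 and 61.5 CPM in CTRL, and fell 4.32-fold (log2 -2.11 ± 0.14, adjusted p = 0.000608). For these 3 genes the gap between the groups was several times the gap between replicates. Ifit2 had 28.6 and 19.3 CPM with IL-4, against 47.1 and 93.4 CPM in CTRL, and its change of -1.55 ± 0.35 had the largest error of the Ifit genes (adjusted p = 0.0315, and 0.0779 with the LPS libraries left out of the fit, edgeR).

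Rsad2 had 16.2 and 23.8 CPM with IL-4, against 58.9 and 59.5 CPM in CTRL, and fell 2.96-fold (log2 -1.56 ± 0.19, adjusted p = 0.00397, edgeR). Its neighbour Cmpk2 had 11.7 and 14.8 CPM with IL-4, against 41.3 and 29.0 CPM in CTRL, and fell 2.65-fold (log2 -1.40 ± 0.23, adjusted p = 0.0103). Both genes of the pair were low in each IL-4 library. Among the ISG15 genes, Isg15 had 13.5 and 13.4 CPM with IL-4, against 28.7 and 21.6 CPM in CTRL, and fell 1.87-fold (adjusted p = 0.0267, and 0.0540 with the LPS libraries left out of the fit, edgeR). Usp18 had 37.2 and 37.5 CPM with IL-4, against 31.4 and 25.0 CPM in CTRL, a log2 change of 0.40 ± 0.18 that did not pass (adjusted p = 0.192). Herc6 had 31.1 and 16.1 CPM with IL-4, against 22.7 and 47.8 CPM in CTRL, and its groups overlapped (log2 -0.58 ± 0.43, adjusted p = 0.425). The difference in response between these genes was not tested.

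Without IL-4 replicate 1 the count of 7 was 4, with Ifit2, Cmpk2 and Isg15 lost, and without IL-4 replicate 2 it was 5. It stayed at 6 or 7 without any other library. Herc6 turned to 0.05 log2 units without CTRL replicate 2. Replicate 2 over replicate 1 in CTRL was 1.98 for Ifit2 and 2.11 for Herc6, and 0.702 to 1.09 for the other 7 genes. With IL-4 it was 0.674 and 0.519 for those 2 genes, against 0.990 to 1.47 for the other 7.

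Markers of other cells and of macrophages moved with IL-4 as well. Conventional dendritic markers, 3 genes, summed to 6.32 to 6.88 CPM with IL-4 against 0.768 to 0.774 CPM in CTRL; Zbtb46 and Flt3 were called higher, by 4.07 and 3.19 log2 units, and Xcr1 was not called. Macrophage markers summed to 26686 to 28815 CPM with IL-4 against 34458 to 38323 CPM in CTRL. Of these 8 genes Cd14 at -2.18, Fcgr1 at -1.23 and Lyz2 at -0.65 were called lower, and the other 5 were not called. With LPS over CTRL, 4 of the 8 macrophage markers were called higher and 1 lower. Also called higher were 2 of 3 plasmacytoid and 1 of 3 conventional dendritic markers tested, 1 of 2 neutrophil markers and 1 of 8 fibroblast markers. Of all genes, 22.8% were called higher with LPS. The part of these markers in the IL-4 and LPS differences was not tested.

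Set against LPS, IL-4 gave lower values of all 9 genes (23.4% of all genes called lower), with no overlap (35.6% of all genes did not overlap with IL-4 lower), from 9.56-fold for Usp18 (log2 -3.26 ± 0.20) to 119-fold for Rsad2 (log2 -6.89 ± 0.24). This comparison shares its libraries with the previous ones.

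Other genes of the pathway did not all follow. With LPS, 9 of 11 pathway genes rose and 0 fell, where 22.8% of all genes were called higher. Socs1, an inhibitor of JAK signalling, rose by 5.55 ± 0.40 log2 units, Irf7 by 2.95 ± 0.18, Stat2 by 2.51 ± 0.13, Irf1 by 1.98 ± 0.11, Ifnar1 by 1.70 ± 0.10, Ifnar2 by 1.19 ± 0.13, Jak1 by 0.98 ± 0.11 and Irf9 by 0.82 ± 0.12. Ifnb1 had 10 and 12 reads with LPS and 0 and 1 in CTRL and was also called, while Irf3 and Tyk2 had 0.11 and 0.02. With IL-4, 2 rose and 1 fell, where 2513 of 12506 genes were called in either direction and 10.5% were called lower. Socs1 by 6.82 ± 0.41 (adjusted p = 0.000498, edgeR) and Irf1 by 1.72 ± 0.11 (adjusted p = 0.000611) were higher. Irf9 at -0.47 ± 0.12 was lower (adjusted p = 0.0425, edgeR), a call that did not pass with the block (adjusted p = 0.0687). Socs1 had 75.7 CPM with IL-4 on average, against 0.667 CPM in CTRL. The other 8 pathway genes were not called with IL-4: Ifnar1, Ifnar2, Jak1, Tyk2, Stat2, Irf3 and Irf7 had -0.37 to 0.40. Ifnb1 had 0 reads in both IL-4 libraries, and a count of 0 allows up to 3 reads in a library.

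Among the ISG15 conjugation enzymes, Ube2l6, Uba7 and Trim25 rose with LPS by 2.29 ± 0.15, 1.95 ± 0.13 and 0.44 ± 0.09 log2 units, and Arih1 had 0.14 ± 0.17. With IL-4 only Trim25 of these 4 was called, lower by 0.91 ± 0.09 (adjusted p = 0.00244, edgeR), while Ube2l6, Uba7 and Arih1 had -0.30, -0.21 and 0.27.

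Of 25 other antiviral genes tested, 24 rose and 0 fell with LPS, with a median of 2.80. The largest values were those of Cxcl10 at 6.92 ± 0.36, Oasl1 at 5.27 ± 0.25 and Mx1 at 4.74 ± 0.16, and the smallest those of Ifi27l2a at 0.88 ± 0.15, Bst2 at 1.80 ± 0.16 and Samd9l at 2.03 ± 0.80, which was not called (adjusted p = 0.0807, edgeR). With IL-4, 13 fell and 2 rose, against 10.5% of all genes called lower. With the block 11 fell and 2 rose, against 7.28% of all genes called lower. The median without the block was -0.76. Cxcl10 at -2.10 ± 0.33, Oasl1 at -1.80 ± 0.22 and Mx2 at -1.37 ± 0.13 fell most, while the nucleic acid sensor gene Zbp1 at 0.97 ± 0.12 and Tor3a at 0.89 ± 0.15 rose and Bst2 had 0.05 ± 0.15. Of the 8 NF-kappaB dependent genes, all rose with LPS, and with IL-4 1 rose (Ptgs2, not called with the block) and 2 fell (Cxcl1 and Tnf).

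**Figure D5:**
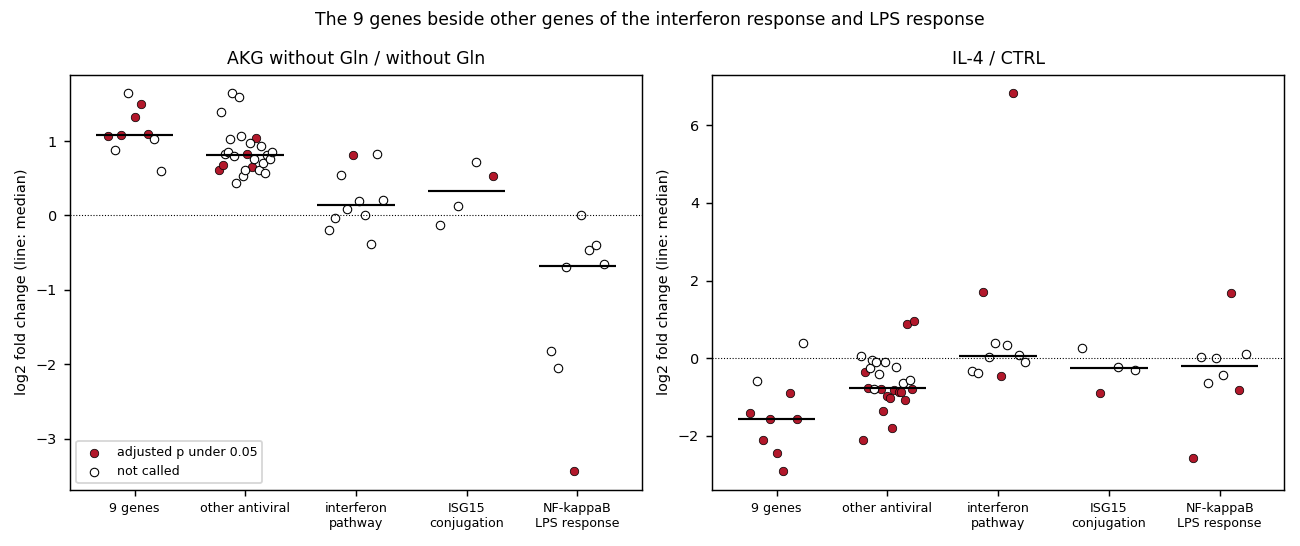
Log2 fold changes of the 9 genes and of 4 gene lists for AKG without glutamine over without glutamine (left) and IL-4 over CTRL (right), with filled points for adjusted p under 0.05 and lines for medians; Ifnb1 is left out for low counts. The medians are 1.09 for the 9 genes and 0.81 for other antiviral genes on the left, and -1.55 and -0.76 on the right; the highest point on the right is Socs1.

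The genes most like the mean of the 9 were found by Pearson's r on log2 CPM, leaving out genes whose mean log2 CPM was under 2. Over the 12 tolerant libraries, with replicates 1 and 2 and replicates 3 and 4 each centred, they were Phf11d (0.995), Slfn1 (0.990), Ifit1bl1 (0.989), Ms4a4c (0.984) and Mx1 (0.984), out of 9612 genes. The 9 genes' own values, to which each contributed, ran from 0.891 for Herc6 to 0.993 for Ifit1. Over the 6 stimulation libraries they were Txn1 (0.99997), Tnfsf10 (0.9998), Slc31a1 (0.9998), Clec4e (0.9997) and Lpar1 (0.9997), out of 9304 genes. The points share their libraries, and in the stimulation set the 2 LPS libraries lie far from the other 4.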

How the data were processed

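Libraries were made from total RNA with a TruSeq stranded kit, per the labels' protocols. The submitters' processing notes name STAR, HTSeq and mm10; neither tool versions, annotation nor strand setting are given in the sources used here. The deposited values are raw counts per gene, 1 table per set. The 9 genes and all lists were chosen with earlier results of these data known.

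Each table was fitted alone, all 3 groups together, with edgeR 4.0.16 under R 4.3.3: filterByExpr, TMM, the quasi-likelihood F test, Benjamini-Hochberg adjustment over all genes tested, and a call at adjusted p under 0.05. This used edgeR's default dispersion estimates. Robust estimates, which the analysis plan did not name, were used for a time after the default results had been seen, because they gave the gene counts of an earlier analysis of these data. The default was restored because it is what the plan described and because robust estimates gave more false calls in a simulation with 2 libraries a group; robust values are given where calls differ. Levels are TMM-scaled CPM, and SE is the log2 change over the square root of F. DESeq2 1.42.0, other filters and scalings, each library left out, replicates 1 and 2 or 3 and 4 alone, and a replicate block were alternatives. The default procedure was tested on simulated counts.

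Deviations of same-numbered tolerant libraries from their group means correlated at 0.501 to 0.823 in all 12 pairs, and the numbers were taken to pair these libraries under a rule of every correlation over 0.1. Differently numbered libraries of the same subset (1 and 2, or 3 and 4) correlated at 0.465 to 0.836, so these values show the split between subsets and no pairing by number beyond it. In the stimulation set the correlations ran from -0.662 to 0.501 and no pairing was taken. With 2 libraries a group, 3 residual degrees of freedom remain.

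Named genes were the 9 genes, every gene of the pathway and conjugation lists, the 3 largest and 3 smallest changes of the other antiviral list, and the 5 most alike genes per table; names given for calls in the LPS response list were chosen after their values were seen. Gene positions and exon lengths came from GENCODE vM21 (GRCm38, which is mm10), promoter sequence from RefSeq. From the pathway list and the macrophage marker list 1 gene each is not reported here and was left out of the counts, sums and the plot.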

Additional observations from a re-analysis of the deposited data

Results flagged for a closer look

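In 1 of the 27 gene and group combinations of the tolerant set, a single library lay far from the others. Usp18 had 55.4 CPM in replicate 2 without glutamine, against 70.9 to 72.0 CPM in the other 3 libraries of that group, a gap of 0.934 of the group's range. By chance about 1 in 20 such groups would show a gap past Dixon's critical value.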

How the results depend on the processing

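For LPS over CTRL and for IL-4 over LPS, all 9 genes were called under every alternative run. For AKG over no glutamine, where 5 were called, the count was 8 with DESeq2, 9 with the replicate block (default or robust dispersion estimates), 9 with the replicate subset (1 and 2, or 3 and 4) as a term, 9 in replicates 1 and 2 alone, and 0 to 5 with a library left out. No gene reversed, which for fits on fewer libraries follows from the lack of overlap between these groups. For AKG over glutamine, where 0 were called, it was 6 with DESeq2, 8 with the block (default or robust), 8 with the subset as a term, 7 in replicates 1 and 2 alone and 2 there with robust estimates, 7 in replicates 3 and 4 alone with either, and 0 with any library left out. For no glutamine over glutamine, where 0 were called, it was 1 with the block (default or robust), 1 with the subset as a term, 5 in replicates 1 and 2 alone and 1 there with robust estimates, 2 in replicates 3 and 4 alone with either, and 0 with any library left out. In that comparison the log2 change of Usp18 was -0.13 in replicates 1 and 2 alone, and those of Cmpk2, Ifit1, Ifit3 and Isg15 were 0.32, 0.24, 0.020 and 0.061 in replicates 3 and 4 alone, all with the sign reversed; with a library left out Cmpk2 ran from -0.21 to 0.15 and Rsad2 from -0.0061 to 0.41. For IL-4 over CTRL, where 7 were called lower, the count was 4 to 7 with a library left out, 6 with the replicate block and 5 with only the groups compared (Ifit2 and Isg15 lost, edgeR adjusted p = 0.0779 and 0.0540), and Herc6 ran from -1.13 to 0.053 with a library left out. The cause of these shifts was not tested.

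Counts over all genes moved as well. For AKG over no glutamine 192 genes were called, against 1945 with the block, 2347 with the subset as a term, 682 with DESeq2, 106 with no filter, 68 with only the groups compared, 2906 and 644 within the subsets, and 28 to 171 with a library left out. For no glutamine over glutamine 597 were called, against 2724 with the block, 3117 with the subset as a term, 1260 with DESeq2, 267 with only the groups compared, 3559 and 1656 within the subsets, and 254 to 549 with a library left out. For AKG over glutamine 0 were called, against 884 with the block, 1155 with the subset as a term, 232 with DESeq2, and 1432 and 782 within the subsets. For IL-4 over CTRL 2513 were called, and 876 to 2500 with a library left out. Robust dispersion estimates, used after the default results had been seen, called 186 and 587 genes for AKG over no glutamine and no glutamine over glutamine, 185 and 582 of them shared with the default. A block with the IL-4 numbers swapped, chosen after the data were seen, called 9, 8 and 9 of the 9 genes for LPS over CTRL, IL-4 over CTRL (7 lower and 1, Usp18, higher) and IL-4 over LPS, and 7992, 3988 and 8058 of all genes. Ifit3b with IL-4, at 49 and 78 reads, had the lowest counts of the 9 genes.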
